A study of Homo sapiens with 8 samples.

Results

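The genes described here encode the enzymes and partner proteins that place N6-methyladenosine (m6A) on RNA in human cells. The 10 members, out of 63568 genes in the count table, were taken by symbol and not by any measured value, though with earlier results of these data known. They are METTL3 and METTL14, which form the catalytic core, WTAP, VIRMA, RBM15, RBM15B, ZC3H13 and CBLL1, which are regulatory subunits of the same complex, and METTL16 and METTL5, which methylate RNA on their own or with a different partner. The cells were MIAPaCa-2, an established human pancreatic cancer cell line labelled as epithelial, carrying either a control short hairpin RNA (labelled shRNA-Control, here "control") or one directed at METTL3 (labelled shRNA-METTL3, here "METTL3-KD"). No drug or other treatment is given in the labels, and whether either line was 1 clone is not given in the sources used here. In each line 1 library was made from RNA precipitated with an m6A antibody and 1 from input RNA, and each library was read on 2 sequencer lanes, giving 8 samples in 4 groups. The lanes were summed, so each condition was 1 sample and no difference between conditions has a replicate check.

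The writer complex transfers a methyl group from S-adenosylmethionine to adenosines of messenger RNA, mostly in a short consensus known as DRACH. METTL3 carries out the transfer, METTL14 holds the RNA and keeps METTL3 in its active shape, WTAP brings this pair to nuclear speckles, and the other subunits guide the complex along transcripts. METTL16 methylates the U6 small nuclear RNA and hairpins in the messenger RNA of the methionine adenosyltransferase MAT2A, while METTL5, stabilised by TRMT112, methylates an adenosine of the small-subunit ribosomal RNA.

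The sequences below are those on which the peaks and the check of the targeted gene turn. The first pair are the designed quantitative PCR primers for METTL3. The forward primer matched exon 1 and the reverse primer exon 2 of the 11-exon transcript ENST00000298717.9, at chr14:21979314-21979334 and chr14:21971998-21972017, both in the coding sequence and 1 match each, for a product of 96 nt. The next pair are 30-base windows at the summits of the METTL3-KD peaks that lay in METTL3 and WTAP, read from GRCh37 on the transcribed strand with the summit base in capitals. They lie at chr14:21968951-21968980 on the minus strand and at chr6:160174325-160174354 on the plus strand.
METTL3 forward primer: acaagaagcagctggactctc
METTL3 reverse primer: acaatgctgcctctggattc
METTL3 peak summit: gcagagcataattcAgcaatcttgtcttgc
WTAP peak summit: gaaatgcagaagatGgatgtgtcccagaaa

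Across the series, the control input held 3237968 counted reads and the METTL3-KD input 1833005. A total of 2730 genes had any read in the control and 10463 did in METTL3-KD. In the control, 2880835 aligned input reads fell on 9291 distinct positions, or 310 reads per position, whereas in METTL3-KD 1337448 reads fell on 52141 positions, or 25.7 per position. Reads per gene clustered: in the control 55.0% of genes (those with 10 or more reads) sat close to 512 or to 1038 reads, and in METTL3-KD 17.1% sat close to 19.4 or to 35.5. The smaller value of each pair is called the lower mode and is used below as a coarse limit of detection. The METTL3-KD modes were shallow, and with a smoothing bandwidth of 0.1 instead of 0.03, tried after the data were seen, that input had a single maximum at 38.1 reads, while the control mode moved to 539.5. Values in METTL3-KD modes are therefore rough. A finer limit, the floor, is 3 reads, or 0.927 CPM (counts scaled to the library total) in the control and 1.64 CPM in METTL3-KD. Exact intervals and floors below cover counting error only. The intervals treat reads as independent, so with 310 and 25.7 reads per position they are likely too narrow. Among epithelial markers KRT8 had 10850 control and 1167 METTL3-KD reads, KRT18 3535 and 1212, and KRT19 1 and 201, but EPCAM and CDH1 were at 0 in both inputs, so the epithelial label was met by keratins alone. The mesenchymal marker VIM had 8978 control and 5649 METTL3-KD reads. Leukocyte markers summed to 0 and 43 reads and fibroblast markers to 1804 and 353, the latter all from COL1A2, and their part in the results below was not tested.

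**Figure D1:**
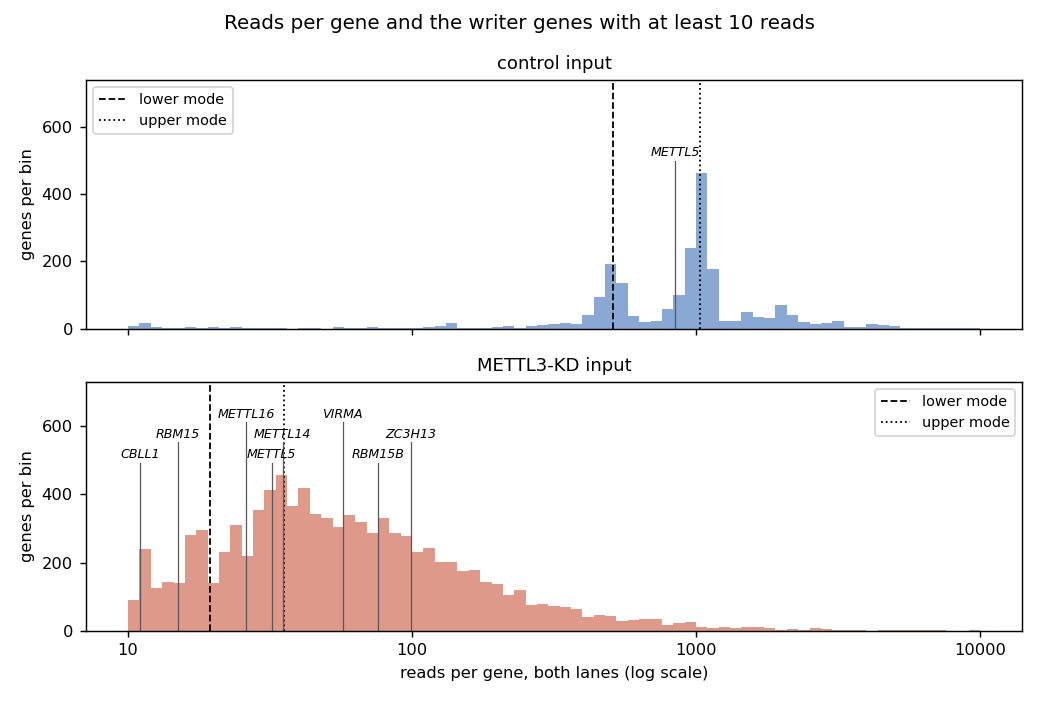
Number of genes per bin (y axis) by reads per gene over both lanes (x axis, log scale) for the control input (upper panel) and the METTL3-KD input (lower panel), for genes with at least 10 reads. Dashed and dotted lines mark the lower and upper modes, and named ticks mark the members: METTL5 was the only one in the control panel, while 8 members lay in the METTL3-KD panel between 11 and 99 reads.

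The catalytic core was the least detected part of the group, since the targeted gene itself had no read. METTL3 (ENSG00000165819.7, chr14:21966277-21979484, minus strand, 5863 nt of merged exons) had 0 reads in control lane 1, 0 in control lane 2, 0 in METTL3-KD lane 1 and 0 in METTL3-KD lane 2. The knockdown could therefore not be checked in these inputs. In RPKM, that is CPM divided by the exon length in kilobases, a count of 0 allowed METTL3 a level of up to 0.158 in the control and 0.279 in METTL3-KD by the floor. The coarse limit was higher, as the control lower mode corresponded to 27.0 RPKM for a gene of this length. A total of 52682 other genes in the table were also at 0 in all lanes. METTL3 shares 388 nt of exon with TOX4, a chromatin-associated gene on the opposite strand, which had 0 control and 48 METTL3-KD reads.

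METTL14 (ENSG00000145388.10, chr4:119606547-119636588, plus strand, 6838 nt) was at 0 on both control lanes, and had 12 METTL3-KD reads on lane 1 and 23 on lane 2. Both METTL3-KD lanes were thus above both control lanes, as any lane with a read would be, and the lanes of each input re-read 1 library. The summed 35 reads gave 19.1 CPM and 2.79 RPKM (95% exact Poisson interval 1.95 to 3.88). In CPM, the METTL3-KD level was 20.6-fold the control floor. The trimmed-mean (TMM) scaling used for ratios below multiplies such a fold further, to 55.4-fold here, so folds are given on the CPM scale. Here and for each gene below, such a fold holds against the floor only. It uses the counted METTL3-KD reads without their counting error, so it is not a minimum. At its METTL3-KD share of CPM, METTL14 would have had 0.121 control lower modes of reads. Against the coarse limit no fold can therefore be given. A total of 35 reads was 1.81 lower modes of that input, and FGF2 was the only other gene with the same counts in all 4 lanes.

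**Figure D2:**
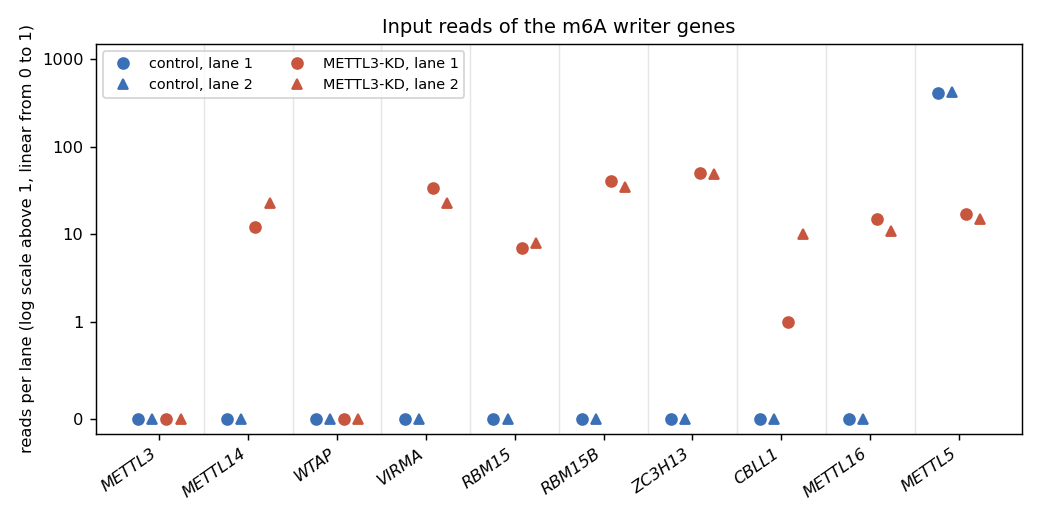
Input reads per lane (y axis, log scale above 1 and linear from 0 to 1) for each of the 10 writer genes (x axis), with control in blue, METTL3-KD in red, circles for lane 1 and triangles for lane 2. Only METTL5 had control reads, and METTL3 and WTAP were at 0 in all 4 lanes.

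Of the 6 regulatory subunits, 5 had reads in METTL3-KD and none had a read in either control lane, beside 39.6% and 10.3% of protein-coding genes. WTAP (ENSG00000146457.10, chr6:160146617-160177351, plus strand), the adaptor that joins the core to the rest, had 0 reads in each of the 4 lanes. Its floor in METTL3-KD was 0.255 RPKM. The scaffold VIRMA (ENSG00000164944.7, chr8:95499917-95565757, minus strand), around which the regulatory subunits assemble, had 34 METTL3-KD reads on lane 1 and 23 on lane 2, or 2.89 RPKM (2.19 to 3.74). In CPM, its level was 33.6-fold the control floor. Each METTL3-KD lane of VIRMA exceeded both control lanes, as any lane with a read would over these zeros. The WTAP zeros and the VIRMA level both rest on 1 library per input.

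RBM15 and RBM15B are paralogous RNA-binding proteins that bring the complex to its targets, and both were seen in METTL3-KD only, with different read counts. RBM15 (ENSG00000162775.10, chr1:110881128-110889303, plus strand, 4670 nt) had 7 and 8 reads, or 1.75 RPKM (0.981 to 2.89). RBM15B (ENSG00000259956.1, chr3:51428716-51435339, plus strand, a single exon of 6624 nt) had 41 and 35 reads, or 6.26 RPKM (4.93 to 7.83). The intervals of the paralogs did not overlap, but they treat reads as independent while this input held 25.7 reads per position. Whether their levels differ beyond that was not tested. In CPM, the level was 8.83-fold the control floor for RBM15 and 44.8-fold for RBM15B. At the same share the control would have held 0.0518 and 0.262 lower modes of reads, under its coarse limit. RBM15 lay under 1 lower mode of its own input, at 0.775, whereas RBM15B lay at 3.92. A total of 21 other genes had exactly the counts of RBM15 in all lanes, EPHX4 and C1orf53 first in file order, and 3 had those of RBM15B.

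ZC3H13 (ENSG00000123200.12, chr13:46528600-46626894, minus strand, 10265 nt), which links WTAP to the RNA-binding subunits and keeps the complex in the nucleus, had the most METTL3-KD reads of the 10 genes. Its lanes held 50 and 49 reads, or 5.26 RPKM (4.28 to 6.41), and its CPM level was 58.3-fold the control floor. CBLL1 (ENSG00000105879.7, chr7:107383518-107402112, plus strand, 5457 nt), a RING-finger ubiquitin ligase also known as Hakai, had the fewest reads of those detected. Its lanes held 1 and 10 reads, so that nearly all of its 1.10 RPKM (0.549 to 1.97) came from lane 2. At 0.568 lower modes CBLL1 was the other member below 1 mode, and its CPM level was 6.48-fold the control floor.

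The separate methyltransferases differed in which input held most of their reads. METTL16 (ENSG00000127804.8, chr17:2308856-2415185, minus strand, 8934 nt) had 0 and 0 reads in the control and 15 and 11 in METTL3-KD. Its METTL3-KD level was 1.59 RPKM (1.04 to 2.33), 15.3-fold the control floor in CPM. A total of 13 other genes, GPR89A and ZBTB37 first, shared these counts in every lane. METTL5 (ENSG00000138382.9, chr2:170666591-170681441, minus strand, 2865 nt) was the single member read in both inputs. Control lane 1 held 418 and control lane 2 held 425 of its reads, and the METTL3-KD lanes held 17 and 15. The lanes of each input lay close together, but they re-read 1 library, so this shows only that the reading repeated. Its level was 260 CPM (243 to 279) in the control and 17.5 CPM (11.9 to 24.6) in METTL3-KD, or 90.9 and 6.09 RPKM. With TMM scaling and a prior count, the log2 ratio of METTL3-KD over control was -2.45, and without the prior count it was -2.47 (exact Clopper-Pearson interval -3.03 to -1.96).

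The METTL5 ratio depended on how the inputs were set against each other. The median log2 ratio of the 1871 genes with at least 10 reads in both inputs was -0.56 under TMM scaling, and METTL5 lay -1.89 from that median. Total count scaling moved that median to -1.98 and METTL5 to -3.84. Dividing the reads of each input by its lower mode moved the median to -0.24 and METTL5 to -1.18. TMM scaling was then applied again and largely cancels that division. This setting therefore mainly enlarges the prior count, which is then in modes and shrinks every ratio. Unscaled, METTL5 came to 1.65 lower modes in the control and 1.65 in METTL3-KD. With the wider smoothing these values were 1.56 and 0.840, so their likeness depended on the smoothing. The METTL5 log2 ratio was negative under every setting tried, each of which scaled by library totals, TMM or DESeq2 size factors. The unscaled modes are not among these settings and showed no lower METTL5 level at the main smoothing. METTL5 shares 572 nt of exon with SSB on the opposite strand, which had 3 control and 234 METTL3-KD reads. Whether counting used strand is not stated, and any part of these reads in the METTL5 counts was not tested.

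**Figure D3:**
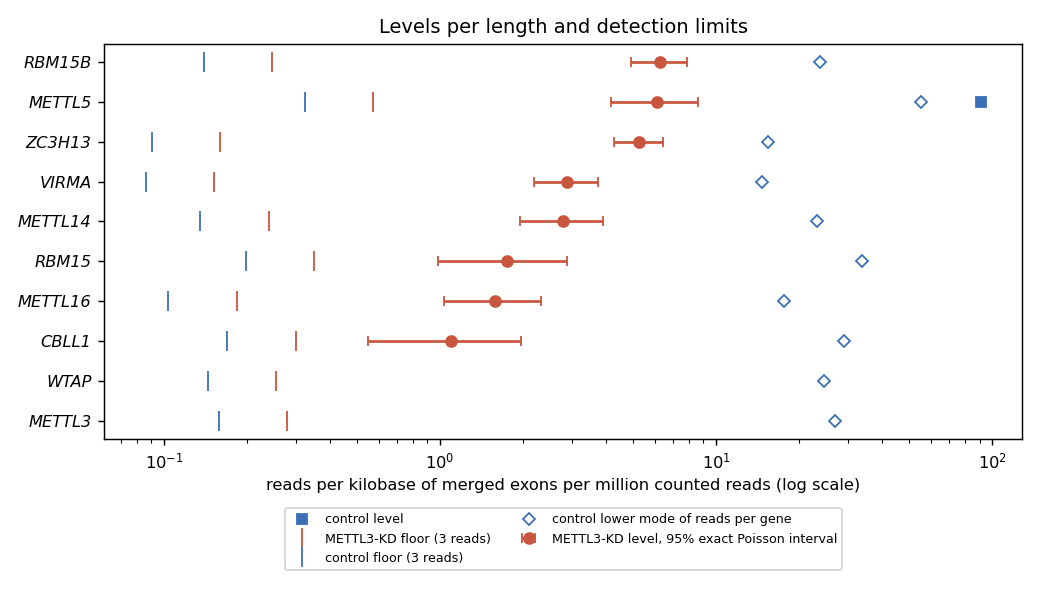
Level of each writer gene in RPKM over merged exons (x axis, log scale) in the METTL3-KD input (red circles with 95% exact Poisson intervals) and, for METTL5, in the control input (blue square). Vertical ticks are the floors of 3 reads and open diamonds the control lower mode: every METTL3-KD level drawn lay above its floor and below the open diamond of the same gene.

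Read against all genes, the direction of the group was that of the whole table. With at least 10 reads over both inputs, 8 of the 10 genes could be compared, and 7 of them, or 87.5%, had a log2 ratio above 2. All 7 had no control read, and all of the 7383 tested genes without a control read were above 2. Passing the filter without a control read thus fixed the call, also in the lists set beside the members below. The share above 2 therefore mainly tells which genes lacked control reads. Over the 9931 genes tested the share above 2 was 79.2%, and the share under -2, where METTL5 lay, was 7.2%. The median log2 ratio was 5.47 for the 8 genes and 5.64 for all genes tested. These ratios carry a prior count and, where the control is at 0, are set by it. With reads divided by the lower mode, which under TMM scaling mainly enlarges the prior count, none of the 8 passed 2 in either direction. The 7 genes without control reads then had values from 0.23 (CBLL1) to 1.35 (ZC3H13).

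Detection was set beside that of all protein-coding genes. Of 19488 protein-coding genes, 10.3% had a control read, against 1 of the 10 members, and 39.6% had a METTL3-KD read, against 8 of the 10. Neither input held a read of METTL3 and WTAP, as for 59.1% of protein-coding genes. Among protein-coding genes with at least 10 METTL3-KD reads 76.8% had no control read, and among those with 10 to 99 METTL3-KD reads, the range of all 8 detected members, 85% had no control read, against 7 of these 8. These zeros were also set against the coarse limit of the control. At their METTL3-KD share and TMM scaling, the 7 genes would have had less than 1 control lower mode of reads, from 0.102 for CBLL1 to 0.706 for RBM15B and 0.919 for ZC3H13. Of the 7383 tested genes without control reads, 83.6% lay in the same position. Among the 2356 tested genes whose METTL3-KD level came to at least 1 control lower mode, 51.4% still had no control read. In bulk RNA, fewer cells that express a gene and less of its RNA per cell cannot be told apart.

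**Figure D4:**
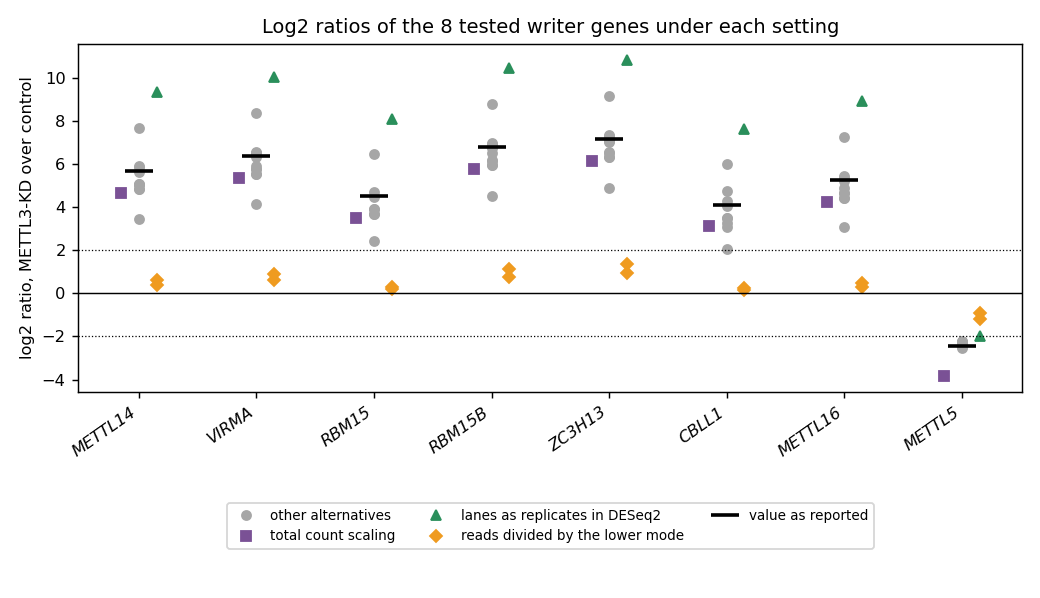
Log2 ratio of METTL3-KD over control (y axis) for the 8 writer genes with at least 10 reads (x axis), with a black bar for the value as reported and symbols for each alternative setting. Dotted lines mark 2 and -2, and METTL5 alone was negative. Reads divided by the lower mode (orange diamonds, 1 for each smoothing), which mainly enlarges the prior count, brought every gene between these lines.

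Per length, the METTL3-KD levels fell into an order whose neighbours mostly could not be separated. RBM15B, METTL5 and ZC3H13 stood highest, at 6.26, 6.09 and 5.26 RPKM, with overlapping intervals. VIRMA and METTL14 followed at 2.89 and 2.79 RPKM, then RBM15 at 1.75, METTL16 at 1.59 and CBLL1 at 1.10. The step from ZC3H13 to VIRMA was the only one between neighbours whose intervals did not overlap, and these intervals cover counting error only. The median of the 7722 protein-coding genes detected in METTL3-KD was 5.22 RPKM, so that the first 3 genes lay at percentiles 56.4, 55.4 and 50.2 and the other 5 between 9.78 and 30.3. METTL14 thus stood below the middle of detected genes, and its obligate partner METTL3 was not detectable at this depth. Several members share exon sequence with genes on the opposite strand, among them RBM15B with DCAF1 over 1325 nt (0 and 87 reads for DCAF1) and WTAP with SOD2 over 437 nt. The antisense genes RBM15-AS1, CPB2-AS1 and CBLL1-AS1, beside RBM15, ZC3H13 and CBLL1, had 0 reads in both inputs.

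The m6A peaks, called once per line over the local input background, were next placed on the 10 genes. The m6A reads fell on 7920 distinct positions in the control and 4508 in METTL3-KD, or 283 and 278 reads per position. The part of this in the peaks found was not tested. The control list held 2298 peaks at a q value under 0.01, and none lay in a member, where 9.25% of protein-coding genes held a peak. The METTL3-KD list held 830 peaks, and 2 lay in members, where 3.59% of protein-coding genes held one. The genes with a peak, METTL3 and WTAP, were those without any input read. This was not particular to them. METTL15 and COL1A1 (METTL3-KD list) and YTHDF3 (control list) also held a peak without input reads, while AHCYL1 and TRMT112 had both. The METTL3 peak lay at chr14:21968916-21969015 in intron 5 of ENST00000298717.9, an intron of 230 nt, with its summit 89 nt from the nearest exon and 10518 nt from the gene start. The WTAP peak lay at chr6:160174289-160174388 in intron 6, of 5090 nt, of the 8-exon transcript ENST00000621533.5, with its summit 153 nt from an exon. That position also lies within the body of SOD2 on the opposite strand.

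Both peaks were at the smallest height in the lists. Each had a pileup of 1 fragment, a fold of 2.0 over background and a -log10 q of 2.94, values shared by many peaks, since 61.8% of METTL3-KD peaks and 52.0% of control peaks had a pileup of 1. At a q value under 0.001, or at a fold above 2, neither peak was left. This followed from the values just given. Each cut left 317 METTL3-KD peaks, so they are not separate checks. With the summit required to lie in an exon, neither remained either. The sequence at the summits was searched within 50 nt on each side for the 18 pentamers of DRACH (the first base A, G or T, the second A or G, then A and C, and the last A, C or T), overlaps counted. On the transcribed strand the METTL3 window held 0 and the WTAP window 0, and on the opposite strand each held 2. Of the 324 METTL3-KD peaks in introns, 84.6% held at least 1 on the transcribed strand and 91.4% on the opposite one. The lack of a match says only that these letters are not in these windows.

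**Figure D5:**
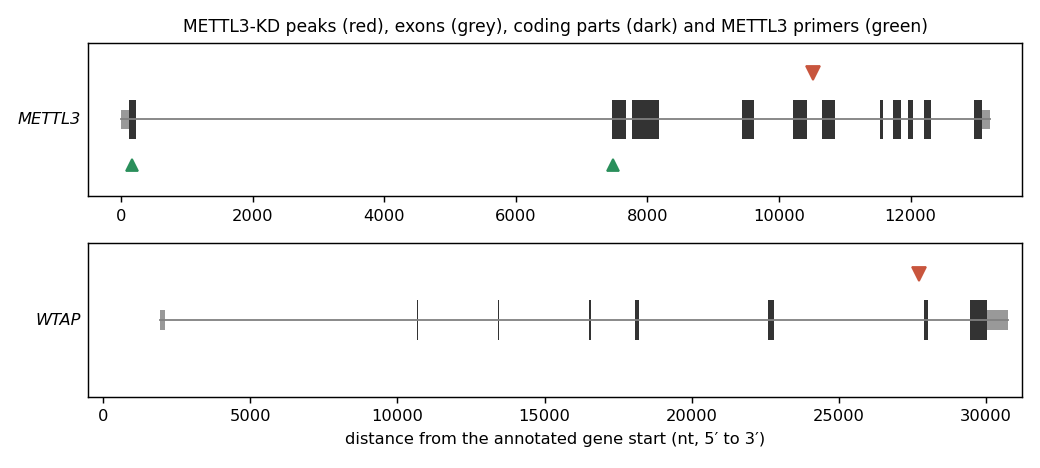
METTL3 and WTAP drawn 5′ to 3′ by distance from the annotated gene start (x axis, nt), with exons of the canonical transcript as boxes, coding parts dark and introns as a line. Red triangles mark the METTL3-KD peak summits, both between exons, and green triangles mark the METTL3 primers in exon 1 and exon 2.

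The pentamers were also counted along the canonical transcript of each member, as a description of how many candidate adenosines the writers' own messengers carry. VIRMA had 25 per kilobase, ZC3H13 23.8, WTAP 23.8, METTL5 23.0 and METTL14 22.3. RBM15B, CBLL1, METTL3, RBM15 and METTL16 lay between 19.3 and 17.9, near the median of 19.0 over 19894 protein-coding transcripts. VIRMA stood at percentile 94.4 of these transcripts, and no peak of either list lay in it. Most genes held none, as 9.25% of protein-coding genes held a control peak and 3.59% a METTL3-KD peak. The 162 pentamers of VIRMA and the 191 of ZC3H13 were the highest counts among the members.

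The known targets and partners of METTL16 and METTL5 were read in the same files. MAT2A makes S-adenosylmethionine, and its last exon carries the hairpins that METTL16 binds. Its transcript ENST00000306434.8 held 6 copies of the recognition sequence TACAGAGAA or TACAGAAAA on the transcribed strand, all in the 3′ untranslated part of exon 9 of 9. At least 1 copy was present in 7.78% of the 19894 transcripts, and 2 transcripts held as many as 6. The 6 sites are shown with their flanks because they are the binding sites of a member, with the recognition sequence in capitals, in order from chr2:85770925-85770954 to chr2:85772235-85772264 on the plus strand of GRCh37.
MAT2A site 1: tggcgtaggcTACAGAGAAgccttcaagct
MAT2A site 2: tgtgatgtcaTACAGAGAAgtcacagggca
MAT2A site 3: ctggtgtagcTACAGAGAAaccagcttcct
MAT2A site 4: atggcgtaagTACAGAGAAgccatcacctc
MAT2A site 5: caaggtgtccTACAGAAAAaccttgggtta
MAT2A site 6: gctggtgtggTACAGAGAAgccagcttgtt

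MAT2A was read in both inputs, at 969 and 992 for the control lanes and at 164 and 184 for METTL3-KD. The log2 ratio of MAT2A was -0.25 (-0.41 to -0.08), within the threshold of 2 and above the median of -0.56. Its sign depended on the scaling, as it was -1.67 with total counts, -0.01 with DESeq2 size factors and 0.26 with lanes as replicates in DESeq2. MAT2A was read in the control where METTL16 was not. No peak of either list lay in MAT2A. TRMT112, which METTL5 needs for its stability, was at 0 in the control and had 3 METTL3-KD reads on lane 1 and 5 on lane 2, under the minimum of 10. In METTL3-KD it held a peak at chr11:64084356-64084455 in exon 4 of 4, with a pileup of 3 fragments, a fold of 3.97 and a -log10 q of 4.64. That peak too had none of the 18 pentamers on the transcribed strand within 50 nt of its summit, and 1 on the opposite strand. Of the 307 METTL3-KD peaks in exons, 83.7% held at least 1 on the transcribed strand and 81.4% on the opposite one.

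Other RNA methyltransferases and partners were set beside the members. Of 14 genes, 1 had control reads and 8 had METTL3-KD reads, beside 10.3% and 39.6% of protein-coding genes. Of 7 tested, 6 had a log2 ratio above 2 and 0 had one under -2, beside 79.2% and 7.2% of all genes. BUD23, another ribosomal RNA methyltransferase that pairs with TRMT112, was the 1 in between, close to the threshold. Its lanes held 800 and 791 control reads and 41 and 44 METTL3-KD reads, and its log2 ratio was -1.97 (-2.31 to -1.66). It passed -2 with total count scaling (-3.38), with no filter on low counts (-2.02) and without METTL3-KD lane 2 (-2.004). BUD23 and METTL5 were thus both read mainly in the control. This is not particular to them, since the 1871 genes with at least 10 reads in both inputs had a median of -1.98 with total counts. In unscaled lower modes BUD23 came to 3.11 in the control and 4.39 in METTL3-KD. NSUN2, a cytosine methyltransferase, was at 0 in the control and had 76 METTL3-KD reads on lane 1 and 82 on lane 2. Its CPM level was 93-fold the control floor. The paralogs METTL2A and METTL2B are near-identical, so their counts, 66 and 79 in METTL3-KD, are uncertain.

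Of the 5 genes of the S-adenosylmethionine cycle, 2 had control reads and 5 had METTL3-KD reads, beside 10.3% and 39.6% of protein-coding genes. Of the 5 tested, 3 were above 2 and 0 under -2, beside 79.2% and 7.2% of all genes tested. AHCYL1, related to the hydrolase that clears S-adenosylhomocysteine, had 465 control and 145 METTL3-KD reads and a log2 ratio of 0.56 (0.29 to 0.84), which total count scaling turned to -0.85. It had a control peak of pileup 1 in the 3′ untranslated part of its exon 17 of 17. Among 10 erasers and readers of m6A, 3 had control reads and 8 had METTL3-KD reads, beside the same 10.3% and 39.6% of protein-coding genes. Of 8 tested, 5 were above 2 and 2 under -2, beside the same 79.2% and 7.2%. The latter were the demethylase ALKBH5, with 1910 control and 89 METTL3-KD reads and a log2 ratio of -2.17, and the reader YTHDF1, with 1632 and 37 reads and -3.19 (-3.73 to -2.75). ALKBH5 lost the call with DESeq2 size factors (-1.93), with lanes as replicates in DESeq2 (-1.67), without control lane 1 (-1.94) and without control lane 2 (-1.997). Both genes lost it with reads divided by the lower mode and the prior count so enlarged (-1.43 and -1.84).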

How the data were processed

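Input RNA and m6A-precipitated RNA of MIAPaCa-2 cells were sequenced by the authors with a stranded kit without poly(A) selection, ribosomal reads were removed with Bowtie2, and the rest were aligned to hg19 with HISAT2 and counted with featureCounts. The deposited table holds raw read counts per Ensembl gene and input lane. Strand use, annotation release and treatment of duplicates are not given in the sources used here. The deposited peak lists (MACS2 2.1.1, lanes pooled) give a pileup signal after duplicate removal, a fold ratio over background and −log10 q values. Their headers give a q cut-off of 0.05, and q under 0.01 was used here after the methods.

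Groups came from the sample titles. L001 and L002 were read as lanes and summed to 1 sample per condition. Lane counts differed beyond sampling noise (chi-square per degree of freedom 2.07 in the control and 1.06 in METTL3-KD), and their deviations did not pair across inputs (correlation -0.016 over 1871 genes). Because lanes are not separate cultures, no p-value between conditions was computed. Log2 ratios used edgeR 4.0.16 with TMM scaling, a prior count of 2 and genes with at least 10 reads over both inputs, and a ratio past 2 or -2 was counted, the size limit in the methods. Control counts of 3 or fewer were set to 3, giving a fold over the floor from the counted METTL3-KD reads. Intervals (95%) are exact Poisson for levels and Clopper-Pearson for ratios. DESeq2 1.42.0 served as an alternative only. Gene models came from GENCODE 44 on GRCh37, which matched 55665 of 63568 gene identifiers, and RPKM used merged exon length. The lower mode was the first maximum of a kernel density of log10 reads (bandwidth 0.03). All 10 members were named, with MAT2A, TRMT112, the 2 most-read genes of each other list, and the first 2 genes with the same lane counts as a member. Genes named for exon overlap or for a peak without input reads, METTL2A, METTL2B and the marker genes fall outside that rule. Members and lists were chosen with earlier results of these data known. Alternatives changed scaling, prior count, filter, threshold, lanes, detection limit and peak limits.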

Additional observations from a re-analysis of the deposited data

How the results depend on the processing

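Of the alternative values, 87 stayed within the set margin and 72 moved. For the 7 members without control reads a positive ratio was fixed by the zeros, so their direction says nothing of stability. The METTL5 ratio was negative throughout, but each setting scaled by library totals or size factors. In unscaled lower modes METTL5 came to 1.65 in both inputs at the main smoothing. With at least 50 reads, 3 of 4 tested members were above 2, beside 64.1% (3623) of all genes. With reads divided by the lower mode, 0 were above 2 and 0 under -2, beside 581 and 87 of all genes. TMM scaling largely cancels the division, so this setting mainly enlarges the prior count, which is then in modes. A wider smoothing of the mode, added after seeing the data, also gave 0 and 0, beside 211 and 8 (METTL5 at -0.91). Lanes as replicates in DESeq2 left 0 under -2 (METTL5 at -1.96), and total count scaling put 12.7% (1260) of all genes there. Leaving out 1 lane at a time gave 5 to 7 members above 2 and 1 to 1 under -2, beside 76.3% to 79.5% and 6.58% to 8.22% of all genes. The lowest came without METTL3-KD lane 2, where RBM15 and CBLL1 fell under 10 reads. The fit with the lane as replicate block gave 7 and 1, beside 79.3% and 6.64% of all genes, as without the block. METTL3-KD peaks in members fell to 0 at q under 0.001, to 0 at a fold above 2 and to 0 with the summit in an exon. The q and fold cuts are not separate checks, as their outcome followed from the pileup of 1 of both peaks. The control zeros stand in the input with more counted reads but fewer distinct positions, 9291 against 52141, and the part of this in the zeros was not tested.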
